A study of Mus musculus with 16 samples.

Results

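Genes best known from neurons, 10 in number, were followed in mouse cells taken towards the tendon lineage and in tendon tissue: *Gal*, *Npy*, *Nptx1*, *Gria2*, *Gsg1l*, *Slc18a3*, *Stmn2*, *Nefl*, *Th* and *Prokr2*. They were chosen by their measured values in these same samples, so their own changes over time and between genotypes are a description. Calls on them from the fit across all genes are counted only beside the background of all genes, and nothing is read from them. Of the 10 genes, 9 had an entry among the 29629 genes of the single-cell table, and *Th* had none. All 10 were among the 47729 genes of the tendon table.

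The single cells were mesodermal cells derived from *ScxGFP* induced pluripotent stem cells (iPSCs), a line from mice carrying a green fluorescent protein transgene under *Scx* control. *Scx* encodes scleraxis, a transcription factor of tendon progenitors. The culture began from 1 iPSC clone kept on feeder cells under 2i LIF. Cells were grown for 4 days in DF medium, taken towards mesoderm with the Wnt agonist CHIR99021 and the Hedgehog inhibitor cyclopamine, and kept without both, finally in less serum, a treatment that all single-cell samples share. They were sampled before TGF-β2 was added (T0), and then after 3, 6 or 9 days with 10 ng/ml recombinant human TGF-β2 (T3, T6 and T9). Single Hoechst-stained cells, with doublets and dead cells gated out, were sorted into 3 plates of 384 wells per time point. No sample was kept for 3, 6 or 9 days without TGF-β2, so time in culture and TGF-β2 cannot be told apart. Nothing in the labels says that the 3 plates of a time point came from separate cultures, so their spread may be technical. The tissue was Achilles tendon of 2-week-old littermates, 2 wild type for *Scx* (*Scx*-Wt) and 2 homozygous for a knockout allele (*Scx*-homoKO).

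In neurons the 10 genes serve different steps of signalling. Galanin (*Gal*) and neuropeptide Y (*Npy*) are secreted peptides that act on G protein-coupled receptors, and *Prokr2* encodes such a receptor, for the prokineticins. *Gria2* encodes a subunit of the AMPA glutamate receptor that sets its calcium permeability, *Gsg1l* encodes an auxiliary subunit of the same receptor, and neuronal pentraxin 1 (*Nptx1*) is a secreted protein that clusters it. *Slc18a3* encodes the vesicular acetylcholine transporter, and *Th* encodes tyrosine hydroxylase, the rate-limiting enzyme of catecholamine synthesis. Stathmin-2 (*Stmn2*) binds tubulin in growing axons, and *Nefl* encodes the light chain of neurofilaments. In tendon, nerve endings lie mostly in the surrounding sheath, and nerve-associated peptides have been described near them. Outside the nervous system many neuronal genes are held silent by the repressor REST, which binds a sequence called RE1.

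On GRCm38, *Gal* spans chr19:3409915-3414544, *Gria2* spans chr3:80681450-80802835 and *Prokr2* spans chr2:132337733-132385447, all on the minus strand. *Slc18a3* is a single exon at chr14:32462438-32464850 that lies inside *Chat* (chr14:32408203-32465989) on the same strand, without sharing an exon with it. *Chat* encodes choline acetyltransferase, which makes the acetylcholine that SLC18A3 loads into vesicles. *Nefl* (chr14:68083863-68089095) lies within the span of *Nefm* on the opposite strand and their exons overlap. The strand setting used for counting is not given in the sources used here, so reads in that overlap are uncertain.

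RefSeq promoters of GRCm38.p6, from 250 bases before to 50 after the annotated start, were found for 6 of the 10 genes: *Gal*, *Npy*, *Gria2*, *Slc18a3*, *Th* and *Prokr2*. *Nptx1*, *Gsg1l*, *Stmn2* and *Nefl* had no match. For 10 motifs, both strands were searched in these and in all 32851 promoters of that table. The *Gria2* promoter, shown because it held the rarest of the motifs, had a match to the RE1 element at position -170 (the start is position 0), and only 11 of the 32851 promoters (0.0335%) had one. The capitals mark that match, which reads on the reverse strand, in chr3:80802966-80803025.
Gria2: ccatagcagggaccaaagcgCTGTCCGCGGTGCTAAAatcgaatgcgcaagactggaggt

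The *Th* and *Slc18a3* promoters are shown for the cyclic AMP response element. *Th* (chr7:142900022-142900051) held its palindrome TGACGTCA, present in 1.79% of promoters, at position -45. *Slc18a3* (chr14:32464861-32464920) held the shorter form TGACG, present in 20.8% of promoters, at -49 on the reverse strand. The shorter form is contained in the longer one, so *Th* held both, and *Gal* held TGACG at 19 bases after the start. Capitals mark the element.
Th: cagaggggcttTGACGTCAgcctggccttt
Slc18a3: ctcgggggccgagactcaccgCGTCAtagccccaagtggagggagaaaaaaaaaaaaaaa

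The 3 promoters of the peptide and receptor genes are shown for CAGAC. It shares the letters AGAC with the palindrome GTCTAGAC, to which SMAD proteins downstream of TGF-β bind. None of the 6 promoters held GTCTAGAC, which occurs in 0.213% of all promoters, and CAGAC itself occurs in 49.6%, so a match is common. *Gal* (chr19:3414585-3414644) held it at -78 and again at -245, *Npy* (chr6:49822540-49822599) at -147 and *Prokr2* (chr2:132385503-132385562) at -92. Capitals mark CAGAC, read on the reverse strand in *Gal* and *Prokr2*.
Gal: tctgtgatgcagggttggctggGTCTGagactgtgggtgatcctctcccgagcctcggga
Npy: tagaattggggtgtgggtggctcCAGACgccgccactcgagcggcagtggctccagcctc
Prokr2: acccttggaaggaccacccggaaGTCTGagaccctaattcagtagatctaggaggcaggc

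The other motifs were common or absent in these windows. GGGCGG was found in 5 of the 6 promoters (all but *Gria2*) and in 35.7% of all promoters. The E-box CANNTG was found in *Gria2*, *Slc18a3*, *Th* and *Prokr2* and in 72.3% of all. TGANTCA was found in *Th* alone (7.81% of all), GGCGCC in *Prokr2* alone (11.9%), and TATAAA in none (13.6%). These matches describe letters in a window of 300 bases and say nothing of binding.

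Of 4608 wells, 4594 had at least 200 genes and were taken as cells, between 1147 and 1151 per time point. The plates held 1921125 to 4657093 unique molecular identifiers (UMIs, each counting 1 captured RNA molecule), and the median cell held 10175 UMIs before TGF-β2 and 5703, 8794 and 7900 after 3, 6 and 9 days. The 14 wells left out held no UMI of any of the 9 genes. All 384 well labels recur on every plate by design, and no cell had the same counts as another. All 10 tenocyte markers were higher at T3 than at T0 (edgeR quasi-likelihood test, Benjamini-Hochberg adjusted p under 0.05), while *Tnmd* and *Kera* had no UMI at T0. *Scx* rose from 9.51 ± 2.39 UMIs per 1000000 UMIs of a plate (CPM) before TGF-β2 to 734 ± 28.6 at T3, and stood at 564 ± 77.6 and 162 ± 47.4 at the later time points (mean ± SD over 3 plates, as for all single-cell values below). The tenogenic label was thus borne out by its markers. Of 17 neuron markers, those with no UMI at T3 included *Rbfox3*, *Neurog2* and *Neurod1*, and the summed level of the list was 167 to 194 CPM at T0 and 124 to 210.4 at T3, with 116 to 275 at T6 and 91.3 to 263 at T9. *Syt1*, of the same list, had 0.429, 0 and 0.269 CPM at T0 and 13.0, 19.2 and 15.3 at T3. It then had 64.2, 31.5 and 112 at T6 and 25.5, 31.2 and 89.5 at T9. Cells with 3 or more of the 17 numbered 84, 24, 78 and 33 at T0, T3, T6 and T9. No cell held more than 5. Epithelial markers fell from a summed 382 to 495 CPM at T0 to 18.2 to 47.5 at T3 (5 of 5 tested were lower). Endothelial markers summed to 13.2 to 17.4 CPM at T0, 15.1 to 73.7 at T3 and 46.6 to 100.5 at T9, with both tested genes, *Kdr* and *Egfl7*, higher at T3 and at T9 than at T0, *Cdh5* at 0 at T0 and T9 and *Tie1* at 0 from T3 on. Pluripotent-like cells, defined below, numbered 118 at T0 and 15, 6 and 15 later. The time comparisons were also fitted without these cells, and those fits of the 9 genes are not given here. Pooled over the 1029 other cells of T0, *Gal* and *Slc18a3* had no UMI. In the same cells *Gsg1l* had 0.0935 CPM, *Nptx1* 0.187, *Prokr2* 1.12, *Npy* 2.15, *Gria2* 4.21, *Nefl* 6.08 and *Stmn2* 797.

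Of the 9 genes, 8 had their highest level at T3 and *Npy* had its highest at T9. The levels below are CPM over all cells of a plate, in the order of the plate numbers. Because a plate is a pool of cells, fewer positive cells and less RNA per cell give the same level, and the shares of positive cells are therefore given as well.

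Galanin had no UMI in the 12691879 UMIs of T0. Its level was 15.1, 32.8 and 50.2 CPM on the T3 plates, 9.98, 14.0 and 12.8 at T6, and 3.53, 1.61 and 6.96 at T9. The peak at T3 was thus at least 148-fold above T0 (against 3 UMIs over the group), and the ranges of the 4 time points did not overlap, although the lowest T3 plate was close to the highest T6 plate. A single T6 cell held 32 of the 137 *Gal* UMIs of T6. Whether T6 would stand clear of T9 without that cell was not tested. Positive cells made up 4.69% ± 2.08 of cells at T3, 2.52% ± 0.302 at T6 and 2.00% ± 0.835 at T9. At T0 no cell of 1147 was positive, which allows a share of up to 0.262%. Between T3 and T9 the level fell 8.78-fold and the share less, so that fewer UMIs were counted per positive cell.

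*Npy* followed another course. Its level was 4.08, 0 and 1.88 CPM at T0, 0, 0.737 and 3.48 at T3, 1.28, 5.41 and 7.61 at T6, and 63.0, 20.6 and 7.30 at T9. The T9 plates differed widely among themselves, and the lowest of them lay within the range of T6, so T9 was higher in mean (30.3 ± 29.1) without standing clear of T6 (4.77 ± 3.21). T0, T3 and T6 overlapped with their neighbours in this order. A single cell of the first T9 plate held 116 of its 232 *Npy* UMIs (50.0%). Without the top cell of each plate the 3 T9 values were 31.5, 13.2 and 4.31. The share of positive cells carried the same order, at 17.0%, 6.56% and 1.82% on the T9 plates against 1.05% to 3.13% at T6.

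*Prokr2*, the prokineticin receptor, was high at both T3 and T6. It had 0.644, 0.695 and 1.61 CPM at T0, 74.4, 71.5 and 60.6 at T3, 65.3, 54.4 and 69.5 at T6, and 4.89, 2.25 and 6.63 at T9. T3 and T6 overlapped, and both lay clear of T0 and T9, with T3 at 72.0 times T0 and T6 at 13.9 times T9. Positive cells were 17.0% ± 3.13 at T3 and 21.9% ± 4.82 at T6, against 0.785% ± 0.262 at T0 and 2.26% ± 1.05 at T9.

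The 3 genes of the AMPA receptor shared a maximum at T3. *Gria2* had 3.44, 3.71 and 4.04 CPM at T0, 56.7, 105 and 90.2 at T3, 34.6, 14.0 and 53.0 at T6, and 8.42, 6.74 and 39.1 at T9. T3 stood above all other plates and T0 below them, while T6 and T9 overlapped. *Nptx1* had 0.429, 0 and 0 at T0, 23.9, 56.4 and 57.8 at T3, 15.1, 20.4 and 13.1 at T6, and 1.90, 3.21 and 2.32 at T9. Its 4 time points did not overlap, and T3 was 309 times T0, where only 2 UMIs were counted (95% counting interval 84.8 to 2558).

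*Gsg1l* had the narrowest peak of the set. It had 0.215, 0 and 0 CPM at T0, 28.1, 29.1 and 27.2 at T3, 6.40, 1.59 and 5.47 at T6, and 1.36, 0.642 and 0.995 at T9. The T3 plates agreed within an SD of 0.965 around 28.1, and T3 was 27.6 times T9 and 357 times T0, where 1 UMI was counted (95% counting interval 63.4 to 14159). At T3 the share of positive cells was 20.9% ± 9.21 for *Gria2*, 13.1% ± 6.20 for *Nptx1* and 11.2% ± 4.15 for *Gsg1l*. On the first T3 plate, the shallowest at this time point in UMIs per cell, each of the 3 shares was lower (5.99% to 10.7%) than on the other plates (12.8% to 28.5%), while the *Gsg1l* level was not lower there.

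*Slc18a3* had no UMI at T0. It had 20.3, 14.7 and 20.6 CPM at T3, 8.96, 14.6 and 13.3 at T6, and 0.815, 0.963 and 7.63 at T9. The peak was at least 77.8-fold above T0, and T3 and T6 were separated only by 14.7 against 14.6. Positive cells were 7.38% ± 3.47 at T3 and 6.96% ± 1.21 at T6, which overlapped, and 0.785%, 0.787% and 3.39% on the T9 plates.

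*Stmn2* differed from the rest in being abundant before TGF-β2. It had 928, 726 and 716 CPM at T0, 1185, 1061 and 1105 at T3, 431, 462 and 403 at T6, and 240.4, 264 and 245 at T9. T3 was 1.39 times T0 and 4.45 times T9, and no 2 time points overlapped. The share of positive cells did not rise with the level between T0 and T3 (77.0% ± 7.16 and 74.8% ± 2.65) and fell to 46.3% ± 4.34 at T9.

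*Nefl* had 7.52, 6.48 and 8.61 CPM at T0, 42.2, 60.1 and 50.9 at T3, 20.7, 27.4 and 47.3 at T6, and 5.98, 10.6 and 8.62 at T9. T3 overlapped with T6 and T9 with T0, and T3 was 6.94 times T0. The level at T9 was thus again near that of T0, although each T9 plate lay outside the T0 range. For none of the other 8 genes did the ranges of T0 and T9 overlap. *Nefm*, its overlapping neighbour and partner in neurofilaments, had 3.21 ± 0.810 at T3.

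**Figure D1:**
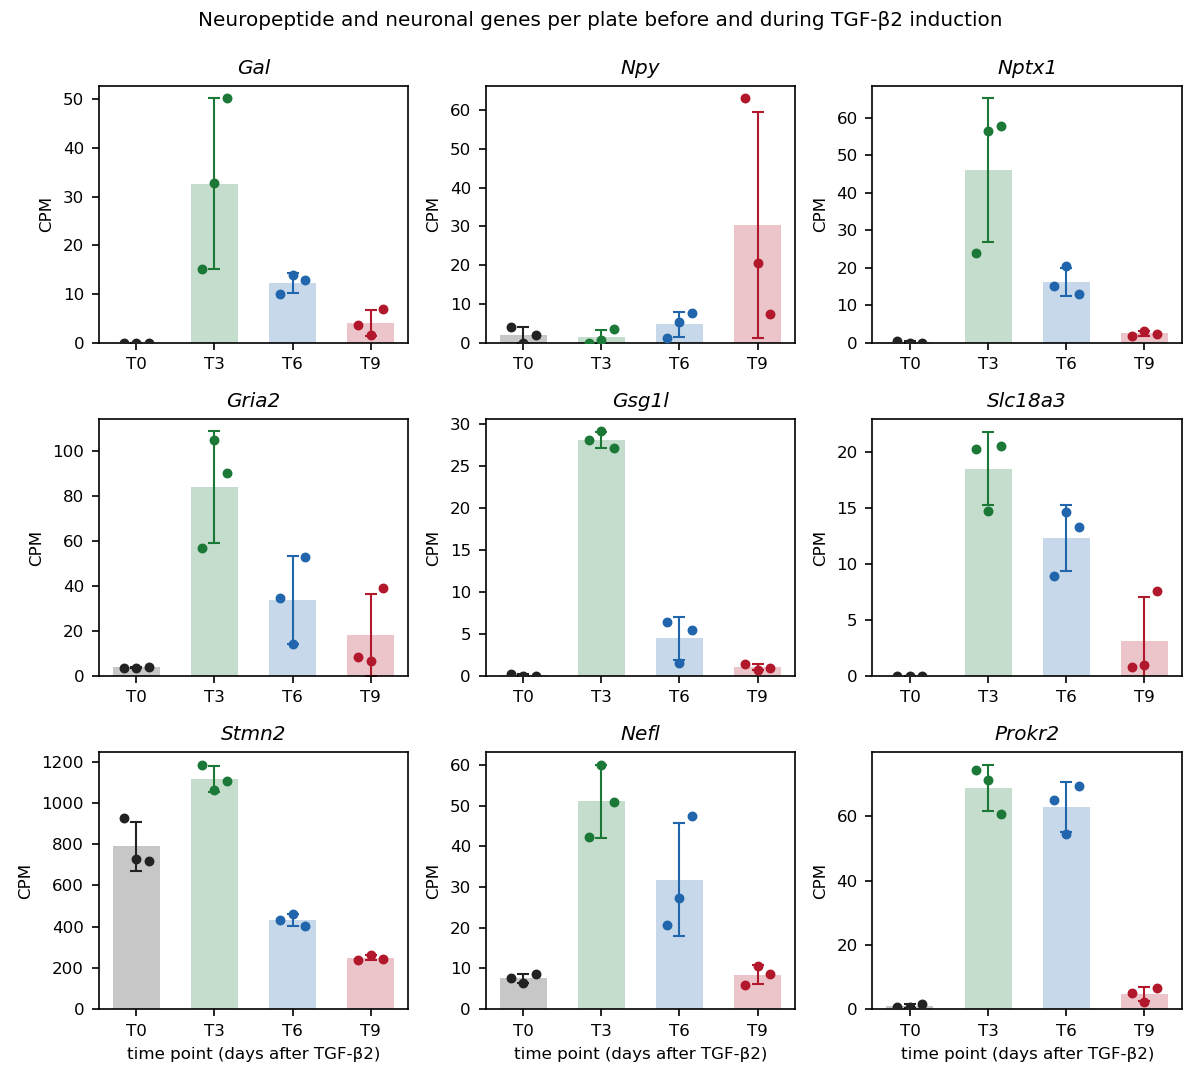
Level of each of the 9 genes in CPM (UMIs per 1000000 UMIs of a plate) at T0, T3, T6 and T9, with bars for the mean of 3 plates, error bars for the SD and points for single plates. All but *Npy* had their highest mean at T3, *Prokr2* was nearly as high at T6, and the 3 *Npy* plates of T9 spread from 7.30 to 63.0.

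Since cells were deepest at T0 and shallowest at T3, the shares were also taken after each cell was thinned to 3000 UMIs, which left 1038 to 1111 cells per time point. The order changed for *Stmn2*, which was then higher at T3 (66.5%) than at T0 (59.4%), as its level was. It also changed for *Nefl* between T9 (1.80%) and T0 (1.77%), and for *Gal*, where T9 (1.26%) passed T6 (1.02%) against the order of its levels. At T3 the thinned shares were 14.3% for *Gria2*, 11.5% for *Prokr2*, 9.76% for *Nptx1*, 7.83% for *Gsg1l*, 7.27% for *Nefl*, 4.03% for *Slc18a3* and 2.96% for *Gal*. For *Npy* the thinned share at T9 was 3.57%.

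The shares before thinning were also taken in 36 cells of T3 to T9 that held UMIs of at least 3 of 8 pluripotency markers. They were deeper (median 18636 UMIs) than the 3411 other cells (median 7430). Whether these cells express the genes themselves was not tested, so the shares are no measure of free RNA. *Gal*, *Npy*, *Nptx1* and *Gsg1l* had no positive cell among these 36, which allows up to 8.33%, against 3.11%, 3.72%, 7.27% and 5.22% of the others. *Slc18a3* and *Prokr2* were each found in 1 of the 36 (5.36% and 13.8% of the others) and *Gria2* in 3 (8.33%, against 14.2% of the others). With 36 cells a lower share in them was not detectable for most of these genes. *Nefl* (27.8% against 7.89%) and *Stmn2* (80.6% against 61.1%) were found in a larger share of the pluripotent-like cells, which were the deeper ones. As a pooled level, *Stmn2* was lower in the pluripotent-like cells (306 against 552 CPM), and *Nefl* had 35.9 against 29.1.

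The 8 genes other than *Stmn2* were spread thinly over cells. At T3, 468 of 1151 cells held none of them, 452 held 1, 169 held 2, 49 held 3, 10 held 4 and 3 held 5 or more. At T0, 1039 of 1147 cells held none, and at T9 882 of 1147. At T3 the median was 5112 UMIs in cells that held none, 5947.5 in cells that held 1 and 7004 in cells that held 2, so cells with these genes were also deeper.

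Pairs of genes were then compared within plates, chosen after the values were seen and given as a description. At T3, *Nptx1* was found in 21.0% ± 8.33 of *Gsg1l*-positive cells and in 12.2% ± 6.02 of *Gsg1l*-negative cells, higher in 3 of 3 plates, and in 19.7% against 8.97% after thinning. *Gria2* was found in 31.0% ± 9.56 of *Gsg1l*-positive and 19.7% ± 8.75 of *Gsg1l*-negative cells, again higher in 3 of 3 plates (24.6% against 13.4% after thinning). Each of these AMPA receptor genes was thus more frequent in cells that held *Gsg1l* on every plate. For the third pair, *Gria2* was found in 28.8% ± 13.7 of *Nptx1*-positive and 19.5% ± 8.25 of *Nptx1*-negative cells, higher in 3 of 3 plates. After thinning the third pair had 21.2% ± 18.4 against 13.0% ± 5.18, higher in 2 of 3 plates. *Gria2* and *Nefl* went the other way, with *Gria2* in 11.5% ± 8.54 of *Nefl*-positive and 22.2% ± 9.67 of *Nefl*-negative cells, lower in 3 of 3 plates although the *Nefl*-positive cells were deeper. *Nefl* was found in 13.7% ± 3.88 of *Stmn2*-positive and 3.81% ± 0.684 of *Stmn2*-negative cells, higher in 3 of 3 plates (8.20% against 5.45% after thinning).

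Partners of the 10 genes in their pathways were tested in 7 lists over the 12 plates. From T0 to T3, 17.0% of the 13372 genes tested were higher and 16.2% lower (edgeR quasi-likelihood test, Benjamini-Hochberg adjusted p under 0.05, as for every call below). Among the 9 genes themselves 8 were called higher and none lower, which their choice fixed. From T0 to T9 the background was 23.6% higher and 21.6% lower, with 7 of the 9 called higher (all but *Stmn2* and *Nefl*) and *Stmn2* lower.

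Receptors and ligands for the 3 signalling genes were almost absent. Of 14 genes encoding galanin, NPY and prokineticin receptors, related peptides and the peptidase DPP4, only 2 passed the filter on low counts and neither was called between any time points. DESeq2 called 0 as well, and at an unadjusted p under 0.05 edgeR gave 0 of 2 from T0 to T3 and 1 of 2 from T0 to T9. The NPY receptor gene *Npy1r* had 3.41 ± 1.84 CPM at T9 and the ligand gene *Prok2* 0.944 ± 0.392, while *Galr1* had no UMI at T0, T3 or T6.

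Some AMPA receptor and pentraxin partners rose when *Gria2* was at its highest. Of 23 genes, 13 were tested, 6 rose from T0 to T3 and none fell, and the median log2 difference was 1.53 against 0.01 over all genes. *Olfm3*, which encodes a secreted olfactomedin, went from 0.411 ± 0.364 to 6.31 ± 1.87 CPM (log2 difference 4.09, SE 0.81, adjusted p = 0.00166). The neuronal pentraxin receptor *Nptxr* went from 2.64 ± 0.692 to 9.89 ± 4.13 (2.09, SE 0.34, adjusted p = 0.000364) and stayed at 12.9 ± 3.21 at T9. *Gria3*, a second AMPA subunit, went from 36.2 ± 4.82 to 96.0 ± 7.13, and the other 3 were *Cacng4*, *Olfm1* and *Olfm2*. From T0 to T9, 7 of the 13 rose, including *Dlg4*, which encodes the scaffold PSD-95 (2.67, SE 0.56, adjusted p = 0.00155), and none fell. *Gria3* stood at 115 ± 37.7 at T9, when *Gria2* was at 18.1 ± 18.2.

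In the list on acetylcholine and catecholamines, 8 of 18 genes were tested, and from T0 to T3 2 rose. *Chat*, the host gene of *Slc18a3*, had 1 plate with a UMI at T0 (0.232 CPM) and 4.16, 5.53 and 6.27 CPM at T3 (adjusted p = 0.00347), then 5.89, 0.318 and 4.52 at T6 and 0.272, 0 and 3.65 at T9. *Ache*, which encodes acetylcholinesterase, had 0.215, 0 and 0 at T0 and 14.1, 11.8 and 11.1 at T3 (adjusted p = 3.04e-06), and 6.79, 2.89 and 6.96 at T9. The choline transporter gene *Slc5a7* had 7.08 ± 1.49 at T0 and 7.03 ± 2.56 at T3. The list's median log2 difference was 0.49. From T0 to T9, 4 of the 8 rose and none fell.

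Of 17 cytoskeletal genes, 13 were tested from T0 to T3, and 4 fell and 1 rose, with a median log2 difference of -0.51. *Gap43*, a growth cone protein gene, fell from 44.3 ± 7.78 to 5.53 ± 4.22 CPM (-2.81, SE 0.45, adjusted p = 0.000347). *Tubb3*, which encodes the neuronal β-tubulin, fell from 12.2 ± 6.85 to 1.05 ± 0.687 (-3.23, SE 0.85, adjusted p = 0.0104, lost in 2 of 14 alternatives, without T0 plate 2 and without pluripotent-like cells, with a highest adjusted p of 0.0532). *Mapt* and *Marcksl1* fell too, and *Uchl1*, a ubiquitin hydrolase gene, rose from 41.8 ± 13.1 to 78.1 ± 24.7 (1.17, SE 0.36, adjusted p = 0.0234, lost in 4 of 14 alternatives). From T0 to T9, 7 of the 13 fell and none rose.

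Peptide precursors other than *Gal* and *Npy* split into risers and fallers. Of 29 genes, 7 were tested, 3 rose from T0 to T3 and 2 fell, with a median log2 difference of -0.51. *Penk*, the enkephalin precursor, had 0, 1.62 and 0.807 CPM at T0, 44.2, 84.4 and 70.0 at T3, 178, 141 and 149 at T6, and 481, 339 and 481 at T9 (T3 against T0 6.52, SE 0.46, adjusted p = 1.73e-07). *Tac2*, the neurokinin B precursor, had 0.859, 0 and 2.15 at T0, 31.8, 29.5 and 42.9 at T3 and 75.5, 60.4 and 47.1 at T9. Every T9 plate of both genes thus stood above every T3 plate, while *Gal* had fallen. *Nts* rose from 0 to 3.93 ± 3.48, with no UMI on the first T3 plate (adjusted p = 0.0171, lost in 4 of 13 alternatives). *Sst* and *Trh*, the somatostatin and thyrotropin-releasing hormone genes, fell from 8.99 ± 3.42 to 1.07 ± 0.938 and from 9.96 ± 4.35 to 1.41 ± 0.588.

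Of 13 genes for peptide processing and dense-core vesicles, 5 were tested. *Rph3al*, an exocytosis gene, rose from 0, 0.695 and 0.538 CPM at T0 to 5.21, 2.21 and 3.48 at T3 (log2 difference 3.29, SE 0.80, adjusted p = 0.00611), and *Cadps*, a priming factor of dense-core vesicles, fell from 8.80, 6.95 and 6.46 to 0, 0.737 and 1.05 (adjusted p = 0.00723) and had no UMI at T6 or T9. *Pam*, which amidates peptides, rose from T0 to T9 (1.53, SE 0.29, adjusted p = 0.000793) and *Cpe*, a carboxypeptidase gene, fell (-1.06, adjusted p = 0.00273). The secretogranin gene *Scg2* never exceeded a mean of 0.553. The 2 tests from T0 share the T0 plates.

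**Figure D2:**
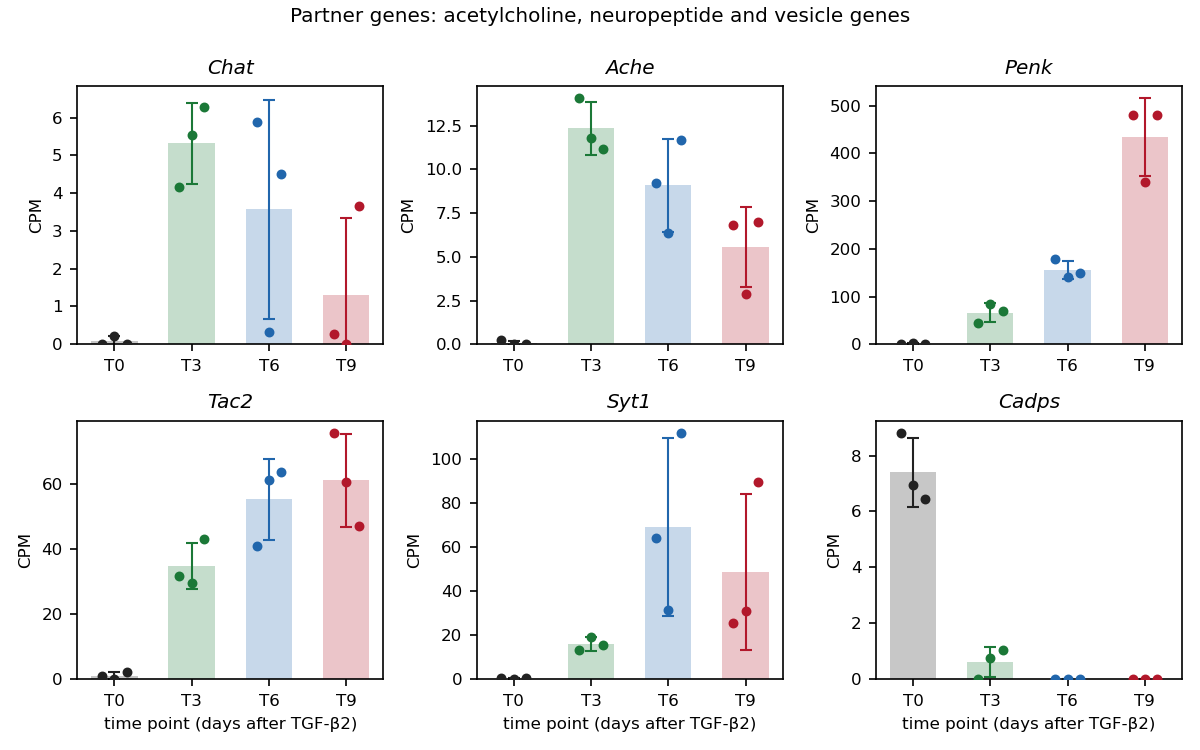
Level of *Chat*, *Ache*, *Penk*, *Tac2*, *Cadps* and the neuron marker *Syt1* in CPM at T0, T3, T6 and T9, with bars for the mean of 3 plates, error bars for the SD and points for single plates. *Chat* and *Ache* had their highest mean at T3, *Penk* and *Tac2* had theirs at T9, *Syt1* ranged from 31.5 to 112 at T6, and *Cadps* was found mainly at T0.

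The later intervals had fewer calls. From T3 to T6, 2.61% of genes were higher and 1.63% lower, and among the 9 genes *Gsg1l*, *Nptx1* and *Stmn2* were called lower. From T6 to T9, 0.935% were higher and 0.688% lower, and *Prokr2*, *Nptx1* and *Nefl* were called lower. These calls are those of genes picked for their course. Among partners, *Penk* rose at both steps (log2 differences 1.28, adjusted p = 0.0242, and 1.72, adjusted p = 0.0115), and *Cacng4*, an auxiliary AMPA subunit gene, fell from T6 to T9 (adjusted p = 0.0307). From T3 to T6, *Cnih2* rose (adjusted p = 0.0392) and *Stmn1* and *Cpe* fell (adjusted p = 0.0128 and 0.0479). Each of these partner calls was lost in at least 3 of its 14 alternatives.

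*Rest* encodes the repressor named after the RE1 element, which was matched in the *Gria2* promoter. It had 223, 210.5 and 191 CPM at T0, 76.0, 141 and 84.7 at T3, 131, 47.1 and 113 at T6, and 29.9, 26.3 and 88.5 at T9. From T0 to T9 it fell by 1.72 on the log2 scale (SE 0.32, adjusted p = 0.000614), a call that held in all 14 alternatives. From T0 to T3 it fell by 0.85 (SE 0.31, adjusted p = 0.0479), a call lost in 9 of 14 alternatives, whose adjusted p ran from 0.000570 to 0.158, the highest with the division of plates described next as a term. Of the 8 genes of the REST complex, all were tested and 4 fell from T0 to T3 (*Rest*, *Rcor2*, *Sin3a* and *Kdm1a*) and 5 from T0 to T9, with none higher, and the median log2 difference was -0.51 at T3 and -0.92 at T9.

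Plates of 1 time point differed in *Gria2* and *Rest* together. The study's mapping summary divides the plates into 7 with more reads outside annotated features, namely every T0 plate, T3 plate 2, T6 plate 1, T6 plate 3 and T9 plate 3, and 5 with fewer. Within each of T3, T6 and T9, *Gria2* was higher in the plates with more such reads, at 105 against 56.7 and 90.2 at T3, 34.6 and 53.0 against 14.0 at T6, and 39.1 against 6.74 and 8.42 at T9. *Rest* followed the same division, at 141 against 76.0 and 84.7 at T3, 113 and 131 against 47.1 at T6, and 88.5 against 26.3 and 29.9 at T9. *Npy* at T9 ran the other way, at 7.30 against 20.6 and 63.0. The time comparisons were also fitted with this division as a term, and those fits of *Gria2* and *Npy* are not given here. Within the plates with fewer such reads *Gria2* ranked T3 over T6 over T9, and within those with more, T3 stood over T6 and T9, which overlapped, and all stood over T0.

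**Figure D3:**
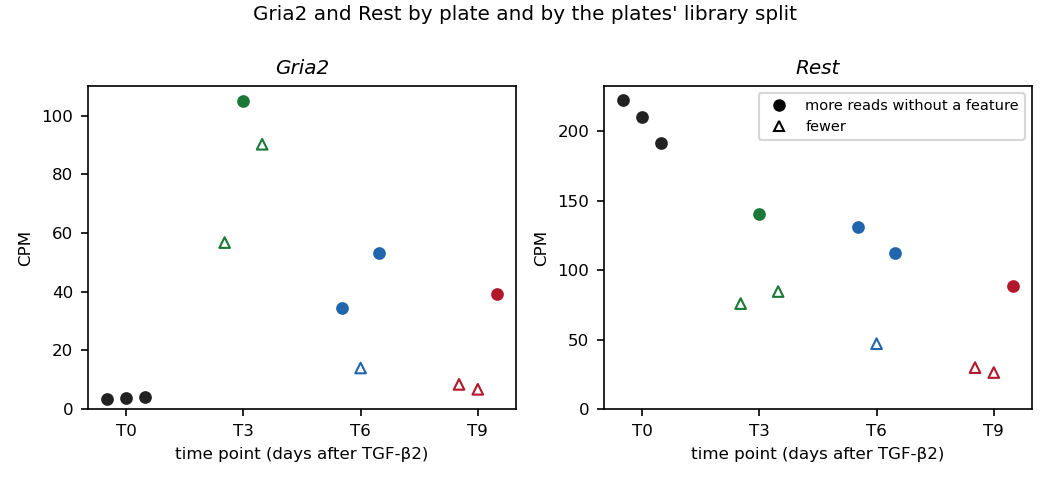
*Gria2* (left) and *Rest* (right) level in CPM on each of 3 plates at T0, T3, T6 and T9. Filled circles are plates with more reads outside annotated features and open triangles are plates with fewer, and within T3, T6 and T9 the filled circles had more of both genes.

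The rule that chose the genes did not use *Scx* or *Tnmd* in the same cell, so these comparisons were tested. Cells of T3, T6 and T9 were divided within each of 9 plates by whether they held a *Scx* UMI, with 61 to 322 cells per class, and the sums of the 2 classes were compared with the plate as a term. *Scx*-positive cells were the deeper class on every plate, with medians of 10081 against 7161 UMIs on T6 plate 1 and 7043 against 7013 on T3 plate 3. Of 11858 genes tested, 1.78% were higher and 0.734% lower in *Scx*-positive cells. Among the 9 genes, *Npy*, *Nptx1* and *Prokr2* were higher, *Stmn2* was lower and 5 were not called. Markers of other cell types differed between the classes too. Pluripotent markers summed to 0 to 241 CPM (median 67.3) in *Scx*-positive and 0.563 to 632 (median 213) in *Scx*-negative cells, lower on 8 of 9 plates, with 4 of 6 tested genes called lower (*Dppa5a*, *Esrrb*, *Sox2* and *Nanog*). Epithelial markers summed to 8.08 to 111 (median 24.5) against 17.0 to 411 (median 83.7), also lower on 8 of 9 plates, with 3 of 4 called lower (*Cldn6*, *Cdh1* and *Krt18*). Without the pluripotent-like cells the calls of the 4 genes held, at log2 differences of 2.05 for *Npy* (adjusted p = 0.00108), 1.64 for *Nptx1* (0.00978), 0.93 for *Prokr2* (0.00538) and -0.66 for *Stmn2* (0.000646), and the part of the epithelial markers was not tested.

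*Nptx1* was the firmest of these. Over the 9 plates its lowest, median and highest levels were 3.85, 16.9 and 64.8 CPM in *Scx*-positive cells and 0, 4.63 and 36.3 in *Scx*-negative cells. It was higher in *Scx*-positive cells on 8 plates (log2 difference 1.73, SE 0.37, adjusted p = 0.00797), and the call held in all 16 alternatives, including thinned cells (1.31, adjusted p = 0.00826).

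*Prokr2* had 1.90, 68.1 and 77.8 CPM as lowest, median and highest in *Scx*-positive cells and 2.42, 23.1 and 79.9 in *Scx*-negative cells. It was higher on 7 of 9 plates (1.00, SE 0.19, adjusted p = 0.00304), and the call was lost in thinned cells (0.68, adjusted p = 0.0888) and without the plate as a term (0.105), with a range of 4.71e-07 to 0.105 over 16 alternatives. *Npy* had 0, 6.01 and 108 against 0, 4.14 and 19.3, higher on 7 plates and lower on 1 (2.05, SE 0.37, adjusted p = 0.00194). Its call was lost with DESeq2 (0.0722), without T9 plate 1 (0.164) and without the plate as a term (0.300), and kept without the cell with the most *Npy* UMIs (1.53, adjusted p = 0.0317), with a range of 7.85e-08 to 0.300 over 16 alternatives.

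*Stmn2* went in the other direction. It had 141, 383 and 1132 CPM as lowest, median and highest in *Scx*-positive cells and 251.5, 729 and 1639 in *Scx*-negative cells, lower on 8 of 9 plates (-0.61, SE 0.12, adjusted p = 0.00289, and -0.73, adjusted p = 1.49e-08 after thinning). Without the plate as a term its adjusted p was 0.145, and over the 15 other alternatives the call held. For the other genes the log2 difference was 0.33 for *Gal* (adjusted p = 0.789), -0.19 for *Gria2* (0.766), 0.65 for *Gsg1l* (0.537), -0.06 for *Slc18a3* (0.977) and -0.21 for *Nefl* (0.809). The signs for *Gal*, *Gria2* and *Slc18a3* turned after thinning. *Gsg1l* rested on 35 UMIs in all *Scx*-negative cells, so a difference of this size was not detectable at this depth.

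*Tnmd*, which encodes tenomodulin, a later tendon marker, gave the second division, over the 6 plates of T6 and T9 with 34 to 74 positive cells per plate. Of 11306 genes tested, 1.57% were higher and 1.02% lower in *Tnmd*-positive cells, with *Nptx1* and *Npy* higher and *Stmn2* lower among the 9. *Stmn2* had 103, 158 and 294 CPM as lowest, median and highest in *Tnmd*-positive cells and 255, 358 and 527 in *Tnmd*-negative cells, lower on 6 of 6 plates (-1.12, SE 0.14, adjusted p = 1.12e-05), and this call held in all 13 alternatives.

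*Nptx1* had 0, 26.3 and 87.5 CPM in *Tnmd*-positive cells and 0.368, 5.10 and 11.1 in *Tnmd*-negative cells, higher on 5 of 6 plates (2.40, SE 0.44, adjusted p = 0.00166). The call was lost in thinned cells (1.76, adjusted p = 0.110). *Npy* had 0, 30.3 and 103 against 1.58, 5.08 and 65.1, higher on 4 of 6 plates (1.74, SE 0.46, adjusted p = 0.0411), a call lost in 6 of 13 alternatives, among them those without T6 plate 2 (0.128), T9 plate 2 (0.397) and T9 plate 3 (0.198). *Nefl* was lower on 5 of 6 plates without passing the test (-1.40, SE 0.39, adjusted p = 0.0537), and passed it in 3 of 13 alternatives, without T6 plate 1 (0.00328), without pluripotent-like cells (0.000609) and with no filter. *Gria2* (0.56, adjusted p = 0.285), *Prokr2* (-0.39, 0.572), *Gal* (-0.53, 0.857), *Gsg1l* (0.52, 0.894) and *Slc18a3* (-0.95, 0.569) were not called. At the level of single cells, at T6 *Tnmd* was found in 39.9% ± 18.3 of *Nptx1*-positive and 10.7% ± 3.27 of *Nptx1*-negative cells, and in 8.79% ± 3.68 of *Stmn2*-positive and 19.6% ± 3.97 of *Stmn2*-negative cells. The former was higher and the latter lower in 3 of 3 plates, and after thinning in 2 of 3 and 3 of 3.

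**Figure D4:**
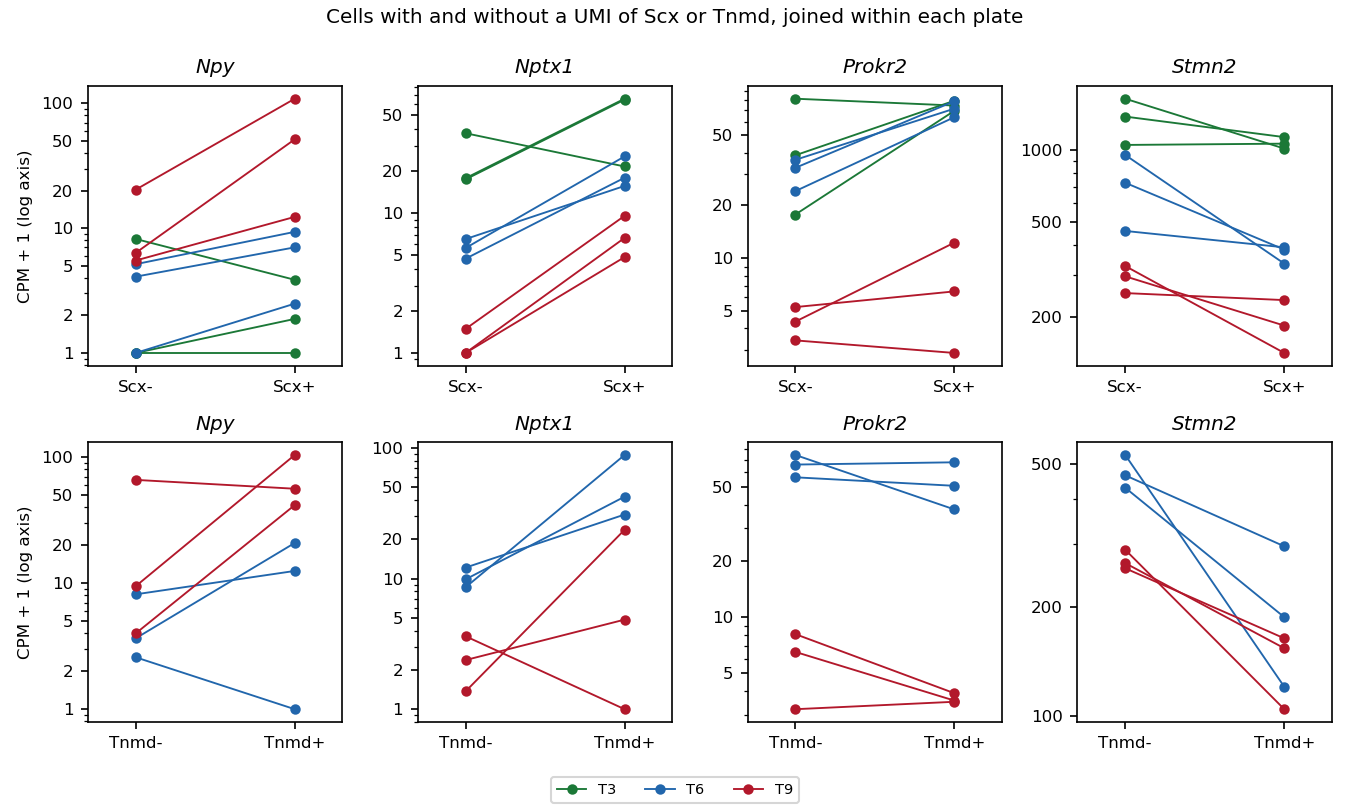
Level of *Npy*, *Nptx1*, *Prokr2* and *Stmn2* in cells with and without a *Scx* UMI (9 plates of T3 to T9) and with and without a *Tnmd* UMI (6 plates of T6 and T9), as CPM plus 1 on a log axis, with a line joining the 2 classes of 1 plate. Lines for *Nptx1* rise towards the positive class on 8 of 9 and 5 of 6 plates, and lines for *Stmn2* fall on 8 of 9 and 6 of 6.

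Partner genes were called between the classes in a few of the 7 lists. Between *Scx* classes these were the AMPA receptor list (1 of 12 tested, *Olfm1*, 0.71, adjusted p = 0.0273, lost in 6 of 16 alternatives) and the cytoskeletal list (3 of 10), higher in the *Scx*-positive and deeper cells. The 3 cytoskeletal calls were all lost in thinned cells, with adjusted p = 0.676 for *Uchl1* (0.000871 before thinning), 0.146 for *Map1b* (0.0223) and 0.752 for *Dpysl3* (0.0360).

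Between *Tnmd* classes, *Uchl1* was higher (0.76, adjusted p = 0.00181), which was lost in thinned cells (0.478). *Marcksl1* (-0.37, adjusted p = 0.00424) and *Tac2* (-1.15, adjusted p = 0.000867) were lower, and both calls held after thinning and were lost only without the plate as a term. The neuron marker *Syt1*, which encodes a synaptic vesicle protein, was lower in *Tnmd*-positive cells (-1.72, adjusted p = 0.000691, and 0.000656 after thinning), as was *Elavl2* (-0.70, adjusted p = 0.0435, lost in 9 of 13 alternatives). The endothelial marker *Kdr* was also lower, 1 of 2 tested, while none of 6 pluripotent (edgeR, 2 at an unadjusted p under 0.05, 0 called by DESeq2) and none of 4 epithelial markers (0 and 0) was called.

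Whether the *Scx* class difference changed from T3 to T9 was tested as an interaction. Of 11858 genes, 0.0759% had a difference shifted towards *Scx*-positive cells at T9 against T3 and 0.0169% one shifted towards *Scx*-negative cells. None of the 9 genes was called (edgeR, with 2 of the 9 at an unadjusted p under 0.05). These 2 were *Nptx1* (log2 3.66, adjusted p = 0.410) and *Npy* (3.33, adjusted p = 0.549), which had 12 UMIs in all at T3 and whose interaction turned to -0.19 without T3 plate 3. *Prokr2* had an interaction of 0.02 (adjusted p = 0.999).

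For each gene the 3 most alike courses over the 12 plates were found by Pearson's r of log2(CPM + 1) among all genes tested. Plates share time points and libraries, so r is a description. *Gria2* was nearest to *Cdc42ep3* (0.992), *Plcb1* (0.979) and *Arl4a* (0.977), and *Stmn2* to *Sox4* (0.983), *Gm12504* (0.973) and *Gm3148* (0.959). *Gal* was nearest to *Zfpm2* (0.978), *Meox1* (0.973) and *Sema3a* (0.969), and *Slc18a3* to *Sema3a* (0.972), *Oasl2* (0.961) and *Ugp2* (0.958). *Nptx1* was nearest to *6330403K07Rik* (0.975), *Meox1* (0.972) and *Camk2n1* (0.967), and *Gsg1l* to *Kcna1* (0.978), *Efemp1* (0.962) and *Pi4k2b* (0.961). *Prokr2* was nearest to *Calcrl* (0.976), *Oasl2* (0.972) and *Lypd6b* (0.968), and *Nefl* to *Calcrl* (0.952), *Ndst3* (0.951) and *Irf8* (0.95). *Npy* had no neighbour above 0.899 (*Ccng1*). *Meox1*, *Sema3a*, *Oasl2* and *Calcrl* were each named for a pair of the genes.

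In Achilles tendon, libraries held 11188270 to 12398560 reads. *Scx* itself had 1151 and 996 reads in the *Scx*-Wt samples and 287 and 296 in the *Scx*-homoKO samples, a fall of 1.88 on the log2 scale (SE 0.17, adjusted p = 0.000429, edgeR, n = 2 per group). Which part of *Scx* the knockout allele removes is not given in the sources used here. *Tnmd* fell by 2.30 on the log2 scale (SE 0.20, adjusted p = 0.000284). In tissue, fewer cells of a type and less RNA per cell cannot be told apart. Of 14602 genes tested, 1.77% were higher and 2.07% lower in *Scx*-homoKO, and of the 4 members that passed the filter *Th* was called higher and *Gsg1l* lower, which their choice fixed.

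*Th*, which was not measured in the single cells, had 1 and 2 reads in the *Scx*-Wt samples and 379 and 244 in the *Scx*-homoKO samples. Both knockout samples stood far above both wild-type samples, at 25.6 ± 6.97 against 0.126 ± 0.0522 reads per 1000000 reads (also CPM) (ratio 201, 95% counting interval 68.6 to 979). *Gsg1l* had 117 and 160 reads in *Scx*-Wt and 37 and 13 in *Scx*-homoKO, 5.71-fold lower without overlap. *Stmn2* had 89 and 90 reads against 106 and 50, and its groups overlapped.

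The remaining genes were at or near the limit of detection in tendon. *Nptx1* had 11 and 18 reads against 0 and 18, *Prokr2* 0 and 0 against 3 and 8, and *Nefl* 0 and 2 against 11 and 2. *Gal* had 5 and 0 against 4 and 0, *Npy* 0 and 0 against 1 and 2, and *Gria2* 1 and 0 against 1 and 0. *Slc18a3* had no read in any of the 4 samples, which allows up to 0.0630 CPM over the 4. *Chat* had none either. *Gal*, *Slc18a3* and *Prokr2*, which were at or near 0 before TGF-β2 and well above it at T3, had at most 8 reads in any tendon sample. *Nptx1* and *Gsg1l* had the same course in the cells, and had up to 18 reads and the higher counts given above.

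Among the partners of *Th*, *Ddc*, the next enzyme of catecholamine synthesis, had 69 and 170 reads in *Scx*-Wt and 489 and 446 in *Scx*-homoKO (log2 difference 1.97, SE 0.34, adjusted p = 0.0131). *Dbh*, the enzyme that makes noradrenaline, had 0 and 8 against 2 and 0. *Ache* had 165 and 284 against 659 and 877 (1.79, SE 0.27, adjusted p = 0.0066). These were the 2 genes called among 10 tested of 18 on the acetylcholine and catecholamine list, both higher, and the list's median log2 difference was -0.20 against -0.0042 over all genes.

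Of 14 cytoskeletal genes tested, *Dcx*, a microtubule-associated gene of young neurons, rose from 3 and 10 to 118 and 67 reads (3.79, SE 0.63, adjusted p = 0.0114, and 0.0559 without *Scx*-homoKO replicate 1). *Map2* fell from 345 and 324 to 77 and 61 (-2.28, SE 0.24, adjusted p = 0.000894). *Scg3*, a granin-family gene of secretory granules, rose from 46 and 59 to 182 and 246 (2.04, SE 0.32, adjusted p = 0.00777), 1 of 4 genes tested on its list. *Dpp4*, which cleaves NPY, fell from 351 and 434 to 154 and 95 (-1.67, SE 0.25, adjusted p = 0.0058), 1 of 5 tested. *Olfm1* rose from 278 and 299 to 484 and 510 (0.79, SE 0.17, adjusted p = 0.0384, lost in 3 of 8 alternatives), 1 of 14 tested among AMPA receptor partners. None of 9 tested peptide precursors was called (edgeR, 4 at an unadjusted p under 0.05, 2 called by DESeq2), and *Penk* had 624 and 397 against 410 and 485 reads. None of the 8 REST complex genes was called (edgeR, 1 at an unadjusted p under 0.05, 0 called by DESeq2), and *Rest* had 277 and 298 against 234 and 204 reads.

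**Figure D5:**
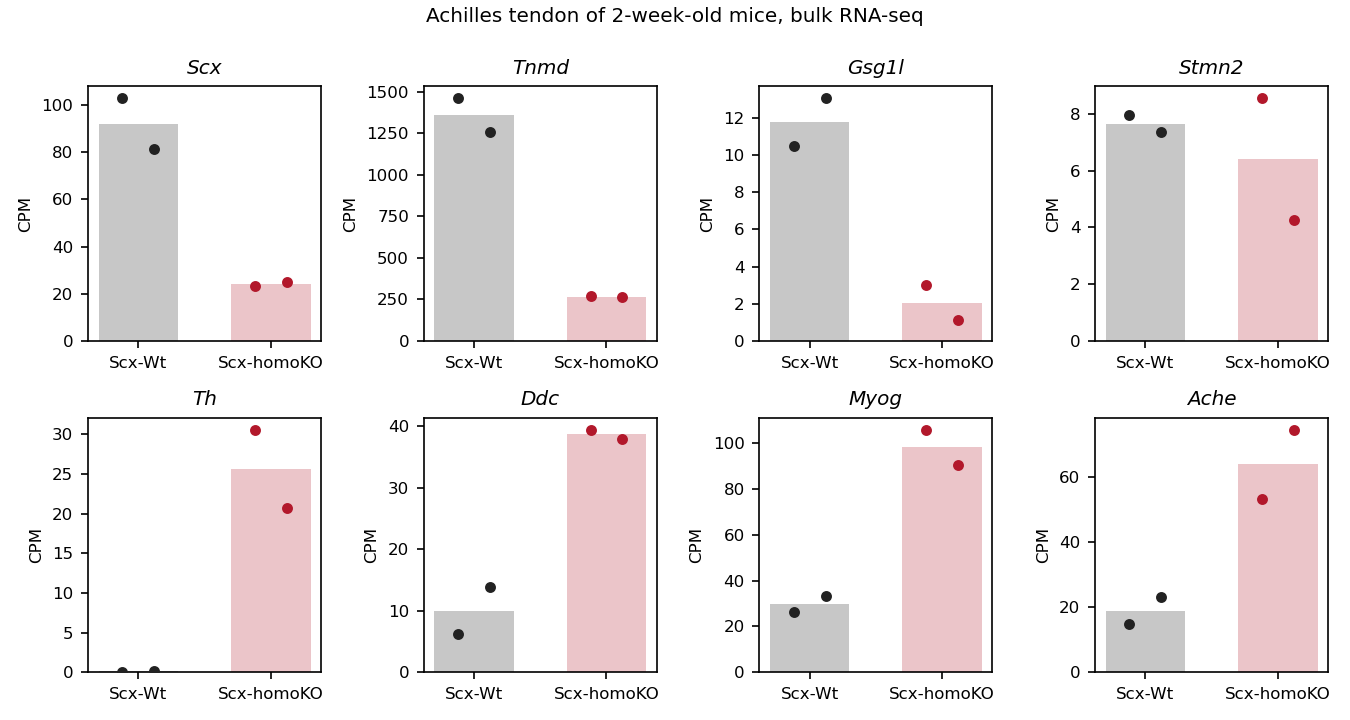
CPM (reads per 1000000 reads of a sample) of *Scx*, *Tnmd*, *Gsg1l*, *Stmn2*, *Th*, *Ddc*, the muscle gene *Myog* and *Ache* in Achilles tendon for 2 *Scx*-Wt and 2 *Scx*-homoKO samples, with bars for the mean and points for single samples. *Th* was nearly absent from both *Scx*-Wt samples and present in both *Scx*-homoKO samples, *Gsg1l* was lower in both *Scx*-homoKO samples, and *Ddc* and *Ache* were higher in both.

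Markers of several other tissues differed between the genotypes. The 10 skeletal muscle markers summed to 36364 to 60687 CPM in *Scx*-Wt and 78386 to 81982 in *Scx*-homoKO, with 2 of 10 called higher, *Myog* and *Myod1*. The 7 epithelial markers summed to 1.31 to 1.61 against 12.1 to 20.6, with *Krt8* and *Krt18* called higher. The 8 endothelial markers summed to 934 to 938 against 581 to 694, with *Tek* and *Kdr* called lower. The 10 Schwann cell and glia markers summed to 665 to 682 in *Scx*-Wt and to 5828 and 63.1 in the 2 *Scx*-homoKO samples, with none of 10 called (2 at an unadjusted p under 0.05, 2 called by DESeq2). The 17 neuron markers summed to 24.1 to 26.02 against 24.6 to 25.97, with *Syt1*, *Neurog1*, *Neurog2* and *Neurod1* among those at 0 in all 4 samples. The 10 tenocyte markers summed to 152621 to 165679 against 72478 to 83457, with 5 of 10 called lower, and the 7 chondrocyte markers to 2361 to 2555 against 108 to 129, with 4 of 6 tested called lower. The part of these markers in the differences of *Th*, *Ddc*, *Ache* and *Gsg1l* was not tested.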

How the data were processed

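Single cells were sorted into 384-well plates and sequenced by CEL-Seq2, and tendon RNA was sequenced in bulk from poly(A) libraries. Per the submitters' processing notes, the authors aligned to GRCm38 with HISAT2 (2.2.1 for cells, 2.0.4 for tendon) and counted with featureCounts (1.5.0 for tendon) and UMI-tools 1.0.1. The deposited values are raw counts, as UMIs per gene and well and as reads per gene and tendon sample, with no normalization. The authors' columns hold no comparisons.

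The 29632 entries of the single-cell table included 3 outside Ensembl, with 0.0642% of UMIs, which were left out. Symbols and positions came from the GENCODE vM21 annotation, with 29528 single-cell and 47224 tendon IDs matched. Wells with 200 or more genes were kept, and UMIs were summed per plate, or per plate and class of cell with at least 10 cells. No cells were clustered, and doublets were excluded by the sort and not called again. Counts were fitted with edgeR 4.0.16 (filterByExpr, TMM, glmQLFTest) in R 4.3.3, with Benjamini-Hochberg adjustment over all genes tested and calls at 0.05. The 12 plates formed 1 fit, the 4 tendon samples another, and class fits had the plate as a term. DESeq2 1.42.0, other size factors, no filter, a replicate block, the division of plates by reads outside features, thinned cells and the omission of each replicate were alternatives. The scripts were tested on simulated counts. Ratios use summed counts, and a group at 0 was set to 3 counts. Intervals and limits cover counting error only.

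The 10 genes, the lists of partners and markers and the tests were chosen with earlier results of these data known. In each list the text names up to 2 called genes per direction with the largest difference, and other names were added after their values were seen. Plates of different time points that share a number were not paired, since the correlation of their deviations ran from -0.563 to 0.515 over 18 pairs.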

Additional observations from a re-analysis of the deposited data

Results flagged for a closer look

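Among the tendon markers named here, *Kera*, which encodes the tendon and cornea proteoglycan keratocan, had a difference between *Scx*-positive and *Scx*-negative cells that itself differed between time points. The difference, taken as *Scx*-positive minus *Scx*-negative, was higher at T9 than at T3 by 4.44 on the log2 scale (SE 0.86, adjusted p = 0.0349, edgeR interaction term). None of the 9 neuronal genes had such an interaction.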

How the results depend on the processing

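The counts of genes called from T0 to T3 (4439) and from T0 to T9 (6050) stayed within 1.5 times under every alternative, including the replicate block (4005 and 5653) and each plate left out (3001 to 4405 and 4774 to 6491). The shorter intervals depended on the fit. From T3 to T6, 567 genes were called, and 899 with DESeq2, 1010 with no filter, 1483 with the division of plates by reads outside features as a covariate, 264 with only the 6 plates compared, 404 with the replicate block and 291 to 890 with 1 plate left out. From T6 to T9, 217 were called, and 568 with DESeq2, 684 with no filter, 813 with the division of plates, 45 with only the 6 plates compared, 113 with the replicate block, and 35 (without T9 plate 1) to 852 (without T9 plate 3) with 1 plate left out. The numbers do not pair the plates, so calls lost under the block are not weaker effects.

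Between genotypes 560 genes were called, with 1415 under no filter, 1108 under the replicate block and 380 to 666 with 1 sample left out, where the lone sample was assumed to vary like the other group. The *Scx* classes gave 298 calls, 505 with no filter, 38 with no replicate block (time point in place of the plate), 172 after thinning and 203 to 335 with 1 plate left out. The *Tnmd* classes gave 293, 442 with no filter, 38 with no replicate block and 177 to 288 with 1 plate left out, and the split of 178 higher and 115 lower became 179 and 263 with no filter and 88 and 111 after thinning. The interaction gave 11, 80 with no filter, 5 after thinning and 2 to 24 with 1 plate left out. With no filter the median log2 difference of all genes was -0.25 between *Tnmd* classes, against -0.024 with the filter, and -0.19 in the interaction, against -0.027. The cause of these shifts was not tested.

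Of 51 calls of partner genes named by rule, 27 held under all alternatives, among them 13 of 15 from T0 to T9, 9 of 16 from T0 to T3 and 5 of 7 between genotypes, and none of the 7 in the shorter intervals or the 6 between classes.

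Directions turned for differences that were not called. *Rest* from T3 to T6 (-0.05) became 0.09 without T3 plate 2 and 0.20 without T6 plate 2. Between *Scx* classes, thinning gave -0.29 for *Gal*, 0.37 for *Gria2* and 0.12 for *Slc18a3*, and *Slc18a3* was 0.0016 with no filter, 0.024 without T3 plate 2 and 0.22 without T6 plate 2. In the interaction, leaving out 1 plate each gave -2.03 (without T3 plate 3) to 0.37 (without T3 plate 2) for *Gal*, which was 0.098 without T9 plate 1, and -0.19 (without T3 plate 3) to 3.77 for *Npy*. *Gsg1l* ran from -0.10 (without T9 plate 3) to 1.62 and was -0.053 without T3 plate 1. *Prokr2* ran from -0.65 (without T9 plate 3) to 0.38, was -0.64 without T3 plate 1, and became -0.070 with no filter and -0.73 after thinning. *Tnmd* ran from -3.60 (without T3 plate 1) to 0.092 (without T3 plate 2), and was 0.053 without T3 plate 3 and 0.075 without T9 plate 1.

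With 2 tendon samples per genotype and UMI totals of 275 to 1286 for 8 of the 9 genes, small differences in these genes were not detectable.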
